A study of Homo sapiens with 8 samples.

Results

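Hepcidin, the liver hormone encoded by HAMP, sets how much iron enters the blood, and the genes described here are those that hepatocytes use to sense iron and to set hepcidin. They are 10 genes of 16040 gene names in one deposited count table and of 14955 in the other, and all 10 were listed in both tables. They are HFE2, TMPRSS6, HAMP, TFR2, TFRC, BMP6, SLC40A1, FTH1, FTL and HFE, and the counts of all listed transcripts of a gene were summed. The set was chosen by fold changes of the SOX4-/- libraries over Hep3B seen beforehand, HFE2 and TMPRSS6 foremost, so in that comparison its values are a description, given without a test. HFE2 is the symbol in the tables for hemojuvelin, which RefSeq now calls HJV.

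Hep3B, a human hepatocellular carcinoma cell line, was sequenced by stranded mRNA-seq in 8 libraries, 2 for each of 4 conditions. The first table holds Hep3B and Hep3B SOX4-/-, in which SOX4, a transcription factor gene, was disrupted with CRISPR/Cas9 and the cells were kept in puromycin. The second holds Hep3B transfected with control siRNA and Hep3B transfected with siRNA against STAT6, the transcription factor of interleukin-4 signalling. All cells were grown in medium with fetal bovine serum. The study's methods give the sequenced SOX4-/- cells as knockout lines #1 and #2, so the SOX4-/- libraries are taken as different lines, although the labels number them only 1 and 2. Between SOX4-/- and Hep3B, loss of SOX4, derivation of the lines and puromycin cannot be told apart. For the other 3 conditions no source used here says that the libraries came from separate cultures, so there the spread behind the p-values may be technical.

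Library totals lay between 16266282 and 25353113 expected counts, which are estimated reads per transcript. SOX4 mRNA was at 728 and 249 CPM in Hep3B and at 261 and 271 CPM in the libraries labelled SOX4-/-, so its level gives no check of that label and each direction below rests on it. STAT6 mRNA was at 46.2 and 33.9 CPM with control siRNA and at 11.5 and 6.49 CPM with STAT6 siRNA. In the libraries labelled SOX4-/- it was at 2.42 and 1.98 CPM, against 29.1 and 12.4 CPM in Hep3B. CPM, counts scaled to a common library total, were taken after TMM scaling of all 8 libraries together. All 10 hepatocyte markers reached 1 CPM in every library. The summed hepatocyte markers were at 12088 to 13911 CPM in Hep3B, 26766 to 43173 in SOX4-/-, 19280.3 to 19504 with control siRNA and 23139 to 23301 with STAT6 siRNA.

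Hepatocytes read iron both at the cell surface and inside the cell. At the surface, BMP6 and its relatives bind BMP receptors with hemojuvelin as co-receptor, SMAD proteins then raise HAMP transcription, and the protease encoded by TMPRSS6 cleaves hemojuvelin and so holds HAMP down, while HFE and transferrin receptor 2 report iron-loaded transferrin to this pathway. Inside the cell, iron regulatory proteins bind iron-responsive elements, short hairpins in mRNA that block translation when they lie before the coding sequence and protect the mRNA when they lie after it. TFRC carries transferrin iron into the cell, FTH1 and FTL form the ferritin shell that stores it, and SLC40A1 encodes ferroportin, the exporter that hepcidin removes.

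Iron-responsive elements, through which the second kind of control acts, were searched as a sequence pattern. Such a search shows neither binding nor control. A hairpin pattern of a bulged C, a paired stem and the loop CAGTGN was searched in GENCODE release 29 transcripts. For each of the 10 genes, only the matched RefSeq transcript with the most counts was searched. It was found in 4 of the 10 genes. Over all annotated genes with a coding transcript, 231 of 20356 genes (1.13%) held it in any coding transcript, a wider search than for the 10. The capitals mark the loop, and each sequence is printed in transcript orientation with its GRCh38 position.
FTL, 5' UTR, chr19:48965335-48965363, plus strand: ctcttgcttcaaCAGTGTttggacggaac
FTH1, 5' UTR, chr11:61967574-61967602, minus strand: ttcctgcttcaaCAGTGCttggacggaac
SLC40A1, 5' UTR, chr2:189580661-189580689, minus strand: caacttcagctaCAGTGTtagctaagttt
TFRC, 3' UTR, chr3:196050979-196051007, minus strand: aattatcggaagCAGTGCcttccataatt
TFRC, 3' UTR, chr3:196050575-196050603, minus strand: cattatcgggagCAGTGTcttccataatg
TFRC, 3' UTR, chr3:196050510-196050538, minus strand: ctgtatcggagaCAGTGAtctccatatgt
TFRC, 3' UTR, chr3:196050463-196050491, minus strand: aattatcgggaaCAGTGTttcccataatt
The ferritin and ferroportin mRNAs held 1 element each, before the coding sequence, and TFRC held 4 after it. The transcripts searched for HFE2, TMPRSS6, HAMP, TFR2, BMP6 and HFE held none that matched this pattern.

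The promoter of HFE2 is shown because the rise of HFE2 was the largest described. RefSeq promoter windows of GRCh38.p14, from 250 bases before the annotated start to 50 after it, were searched for HFE2, TFRC, BMP6, SLC40A1, FTL and HFE, 6 of the 10 genes. On both strands, 5 motifs were searched: GGCGCC, the core of BMP-responsive elements, TTCNNNGAA, bound by STAT3 and other STAT factors, the STAT6 form in which TTC and GAA stand 4 bases apart, and ACAAAG and ACAATG for SOX factors. GGCGCC and both STAT forms are the same letters on both strands. The capitals mark the match.
HFE2, chr1:146021838-146021862, minus strand: caccaacgTTCCTGGAAttttggac
The TTCNNNGAA of HFE2 lay at -119 to -111 from the start. The only other match in the 6 windows was a GGCGCC at -201 in TFRC. Both positions count from the start used for the window. The most counted transcripts of HFE2 (chr1:146021823) and TFRC (chr3:196082162) start nearer to the match. Among all 35116 promoter windows of the same length, 19.2% held GGCGCC, 7.66% TTCNNNGAA, 6.44% the STAT6 form, 16.1% ACAAAG and 10.8% ACAATG. A match is only a match of letters.

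On a scale per kilobase of transcript, which allows genes to be compared, the storage genes stood far above the sensors. In Hep3B the mean level was 4231 CPM per kb for FTL and 1294 for FTH1, then 113 for TFRC, 12.7 for SLC40A1, 1.74 for TMPRSS6 and 1.19 for HFE. HAMP was at 0.645, TFR2 at 0.493, BMP6 at 0.489 and HFE2 at 0.0125 CPM per kb. In SOX4-/- the first 5 kept their order, while HAMP (13.5 CPM per kb), HFE2 (5.07) and TFR2 (5.07) had mean levels above that of HFE (4.44), and BMP6 was last at 0.131. The mean of HAMP there rests on library 2, at 22.8 CPM per kb against 4.28 in library 1. The place of HFE2 and TFR2 above HFE rests on library 1, since in library 2 they were at 4.03 and 3.12 CPM per kb, below HFE at 5.18.

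**Figure D1:**
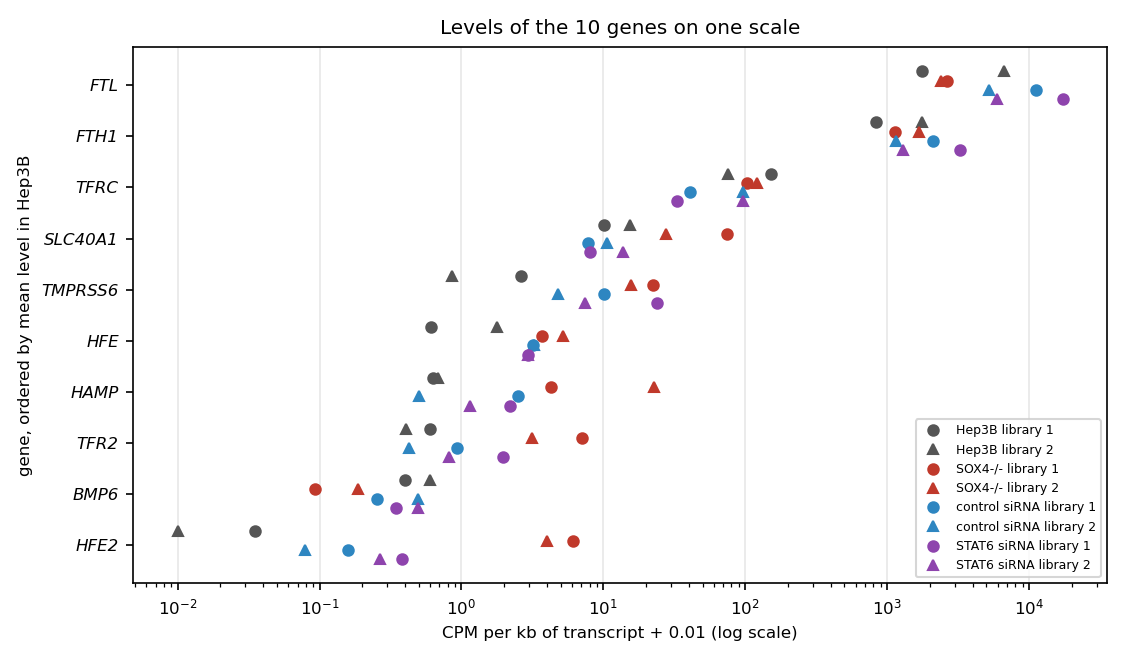
Level of each gene in each of the 8 libraries, as CPM per kb of transcript plus 0.01 on a log axis, with genes ordered by their mean in Hep3B. The ferritin genes FTL and FTH1 lie above all others in every library, and the red SOX4-/- points of HFE2, HAMP and TFR2 lie to the right of the other conditions.

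HFE2 (chr1:146017468-146021823) encodes hemojuvelin, the BMP co-receptor, and its rise was the largest of the 10. It had 1 and 0 counts in the Hep3B libraries and 383 and 169 counts in the SOX4-/- libraries. The level went from 0.0518 and 0 CPM to 12.7 and 8.35 CPM. Hep3B was therefore at the limit of detection in both libraries, and SOX4-/- was far above it in both. The ratio of scaled counts was 433, with an exact 95% interval of 77.4 to 17124 that covers counting error only, and the lower end was 89.5 with SOX4-/- library 1 alone and 58.5 with library 2 alone. The size of the rise is thus poorly bounded above, since it rests on 1 count in Hep3B. Most of the estimate fell on transcript NM_145277, with 71.7% and 86.6% of the counts in SOX4-/-.

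TMPRSS6 (chr22:37065436-37109564) encodes matriptase-2, the protease that cleaves hemojuvelin, so the gene for the co-receptor and the gene for its protease were both higher. TMPRSS6 was at 8.28 and 2.67 CPM in Hep3B and at 70.4 and 49.7 CPM in SOX4-/-, and the groups did not overlap. The log2 fold change was 3.51 (SE 0.60), and it was 2.90 without Hep3B library 2 and 4.51 without Hep3B library 1, the lowest and highest with a library left out. The transcript NM_001289001 held 74.1% of the estimate in each SOX4-/- library. A RefSeq long noncoding gene, LOC124905113, overlaps TMPRSS6.

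HAMP (chr19:35282346-35285143), the hepcidin gene, was near the limit of detection in Hep3B. It had 7 and 8 counts there, and 76 and 271 in SOX4-/-. The level went from 0.362 and 0.396 CPM to 2.52 and 13.4 CPM, without overlap. The log2 fold change was 4.41 (SE 0.92), and it was 2.76 without SOX4-/- library 2 and 5.17 without library 1. The SOX4-/- library with less HFE2, TMPRSS6 and TFR2 was the one with more HAMP.

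TFR2 (chr7:100620416-100641551) encodes transferrin receptor 2, a sensor of iron-loaded transferrin on hepatocytes. It was at 1.71 and 1.14 CPM in Hep3B and at 20.3 and 9.00 CPM in SOX4-/-, with a log2 fold change of 3.43 (SE 0.61), which was 2.70 without SOX4-/- library 1. Of its 2 RefSeq transcripts, NM_003227 went from 1.06 and 0.256 CPM to 18.8 and 8.40 CPM. The other, NM_001206855, was at 0.646 and 0.882 CPM in Hep3B and at 1.47 and 0.601 CPM in SOX4-/-, so its values overlapped. NM_003227 held 62.2% and 22.5% of the TFR2 counts in Hep3B and 92.7% and 93.3% in SOX4-/-. These shares are estimates from reads that both transcripts may share, and in Hep3B they rest on 33 and 23 counts.

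**Figure D2:**
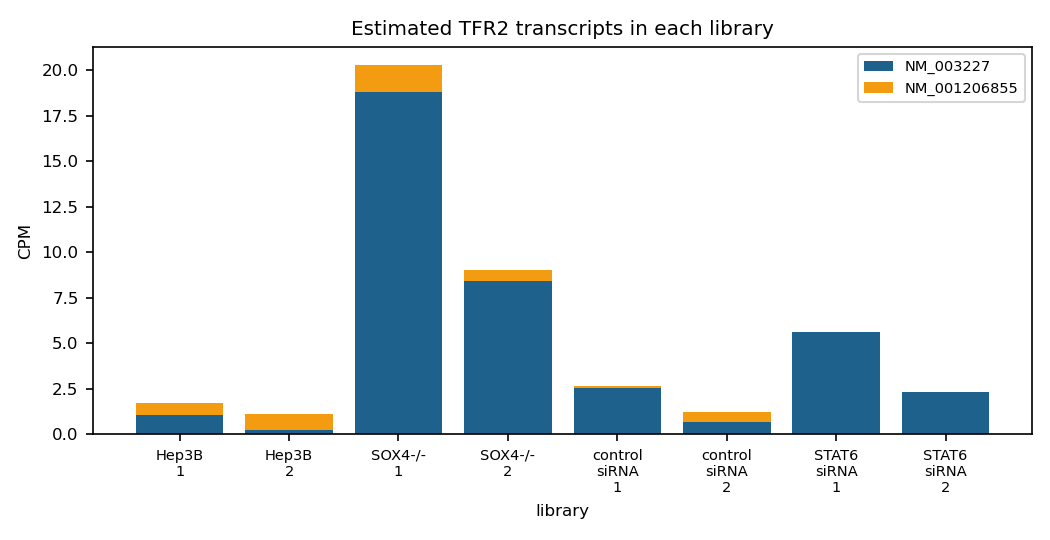
Stacked bars of the 2 estimated TFR2 transcripts in each library, in CPM. The tall SOX4-/- bars are almost all NM_003227, at 18.8 and 8.40 CPM, while NM_001206855 reaches 1.47 CPM at most.

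HFE (chr6:26087281-26095242), the gene most often altered in hereditary haemochromatosis, encodes a partner of both transferrin receptors. It was at 2.69 and 7.92 CPM in Hep3B and at 16.5 and 23.0 CPM in SOX4-/-. The groups did not overlap, but the Hep3B libraries were themselves well apart, and the log2 fold change of 1.96 (SE 0.57) was 1.34 without Hep3B library 1 and 2.91 without Hep3B library 2. An antisense gene, HFE-AS1, overlaps it. The library kit keeps strand, but whether the counting used it is not given in the sources used here.

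BMP6 (chr6:7726778-7881729), the ligand whose level follows liver iron and which in liver comes mainly from endothelial cells, was the one gene of the 10 with both SOX4-/- libraries below both Hep3B libraries. It had 21 and 33 counts in Hep3B and 7 and 10 in SOX4-/-, that is 1.09 and 1.63 CPM against 0.232 and 0.494 CPM. Its log2 fold change of -1.86 (SE 0.75) rests on these few counts. With a library left out it lay between -2.48, without SOX4-/- library 2, and -1.39. The RefSeq genes TXNDC5 and BLOC1S5-TXNDC5 overlap BMP6. The endothelial marker PECAM1, the only one of 3 listed in both tables, was at 0.692 CPM at most.

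SLC40A1 (chr2:189560590-189580812), the ferroportin gene, was at 34.6 and 52.7 CPM in Hep3B and at 256 and 94.8 CPM in SOX4-/-. Both SOX4-/- libraries were above both Hep3B libraries, and library 1 was much the higher. This was a log2 fold change of 2.08 (SE 0.53), and it was 1.18 without SOX4-/- library 1.

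The genes of iron uptake and storage overlapped between Hep3B and SOX4-/-. TFRC (chr3:196049284-196082162) was at 770.0 and 385 CPM in Hep3B and at 527 and 611 CPM in SOX4-/-, a log2 fold change of 0.03 (SE 0.47). FTH1 (chr11:61964285-61967661), the heavy ferritin chain, was at 1031 and 2150.5 CPM and at 1403 and 2052 CPM, a log2 fold change of 0.18 (SE 0.54). FTL (chr19:48965309-48966880), the light chain, was at 1543 and 5886 CPM in Hep3B and at 2302 and 2116 CPM in SOX4-/-. Its log2 fold change was -0.68 (SE 0.69), and it was 0.55 without Hep3B library 2, so its direction turned on that library. The small values of the other 2 genes also changed sign, TFRC to -0.40 without Hep3B library 2 and -0.08 without SOX4-/- library 2, and FTH1 to -0.30 without Hep3B library 1 and -0.14 without SOX4-/- library 2. FTH1 has many processed pseudogenes, and the tables list 1 of them, so reads may have been shared with copies.

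Of the 10 genes, 6 had both SOX4-/- libraries above both Hep3B libraries, 1 had both below, and 3 overlapped. Over all 14415 genes tested, 30.6% were above and 27.4% below in this way. The median log2 fold change was 2.02 over the 10 genes and 0.01 over all genes. Since the genes were chosen with this comparison known, nothing is read from these counts. Marker genes moved in the same comparison. The summed hepatocyte markers were higher in both SOX4-/- libraries, as given above. ALB was the largest part of the sum, at 24881 and 12268 CPM in SOX4-/-. AFP overlapped, at 136 and 28.7 CPM in Hep3B and 65.8 and 27.8 CPM in SOX4-/-, while each of the others was higher in both libraries. Of 3 immune markers, CD68 alone was listed in both tables, at 26.3 to 39.2 CPM in Hep3B and 63.8 to 83.1 CPM in SOX4-/-, and of 3 fibroblast markers only COL1A1 was, at 0.880 to 5.10 CPM and 5.10 to 8.40 CPM. The defining markers PTPRC, CD3E, VWF and CDH5 were not among the genes listed in both. The part of these markers in the results was not tested. In bulk RNA, fewer cells of a type and less RNA per cell cannot be told apart.

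**Figure D3:**
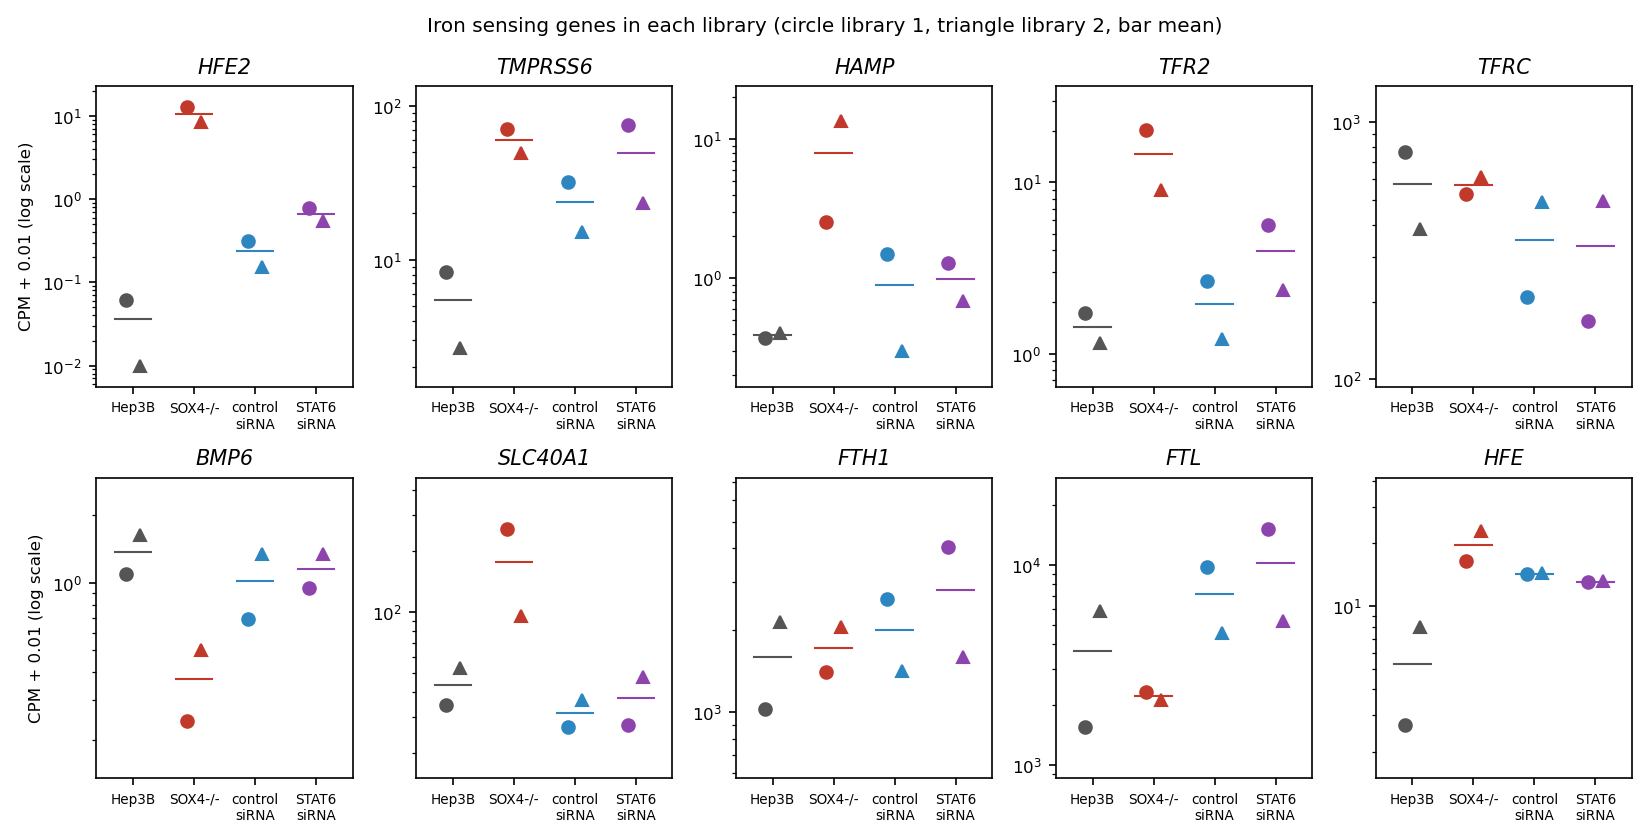
CPM plus 0.01 on a log axis for each of the 10 genes, by condition, with a circle for library 1, a triangle for library 2 and a bar at the mean. The SOX4-/- points of HFE2, HAMP, TFR2, SLC40A1 and HFE lie above those of the other 3 conditions, those of BMP6 lie below, and the siRNA libraries of TFRC, FTH1 and FTL differ more by library number than by siRNA.

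STAT6 siRNA was compared with control siRNA to ask whether loss of STAT6 moves the same genes. After STAT6 siRNA, 0 of 13554 genes tested (0%) passed an adjusted p of 0.05 by edgeR's quasi-likelihood test, and 14 had an unadjusted p below 0.05. None of the 10 genes passed, and each had an adjusted p of 1.000 by that test. DESeq2 also called 0 genes. STAT6 itself, the targeted gene, did not pass (log2 fold change -2.22, SE 0.72, unadjusted p = 0.00834, edgeR's quasi-likelihood test). A test that did not call the targeted gene cannot show that the 10 genes were unmoved. Neither fit took up the library number. Fits with the number as a block, in which TMPRSS6 passed, are given at the end.

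HFE2 was again low, with 5 and 3 counts with control siRNA and 9 and 12 counts with STAT6 siRNA. At 0.308 and 0.144 CPM against 0.768 and 0.537 CPM, the groups did not overlap. HFE2 had a log2 fold change of 1.46 (SE 0.92, unadjusted p = 0.136, edgeR's quasi-likelihood test). It was the only one of the 10 with both STAT6 siRNA libraries above both controls, and 2.74% of all genes tested were. The estimated transcripts of HFE2 differed from library to library, with NM_145277 at 78.6% of the counts in one control library and close to 0 in the other.

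TMPRSS6 was at 32.0 and 15.2 CPM with control siRNA and at 74.8 and 23.2 CPM with STAT6 siRNA. The groups overlapped, since library 2 with STAT6 siRNA was below library 1 with control siRNA. The log2 fold change was 0.98 (SE 0.74, unadjusted p = 0.206, edgeR's quasi-likelihood test), and it was -0.02 without STAT6 siRNA library 1. Leaving that library out makes the library numbers unequal between the conditions. Between libraries of the same number, which no label pairs, TMPRSS6 differed in log2 CPM by 1.22 (number 1) and 0.61 (number 2). TFR2 was at 2.65 and 1.20 CPM and at 5.63 and 2.33 CPM, also with overlap, a log2 fold change of 0.98 (SE 0.81, unadjusted p = 0.247 by the same edgeR quasi-likelihood test). NM_003227 held 95.3% and 54.4% of its counts with control siRNA and 99.6% in both STAT6 siRNA libraries.

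HAMP was at 1.48 and 0.288 CPM with control siRNA and at 1.28 and 0.671 CPM with STAT6 siRNA, from 6 to 24 counts a library. The log2 fold change was 0.08 (SE 0.91), an error that would not let these libraries show a change of a few fold. BMP6 was at 0.677 and 1.34 CPM and at 0.939 and 1.34 CPM, a log2 fold change of 0.14 (SE 0.80).

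HFE was at 14.2 and 14.4 CPM with control siRNA and at 13.0 and 13.2 CPM with STAT6 siRNA, a log2 fold change of -0.18 (SE 0.71). It was the only one of the 10 with both STAT6 siRNA libraries below both controls, and 5.25% of all genes tested were. SLC40A1 was at 27.0 and 36.4 CPM and at 27.6 and 47.6 CPM, a log2 fold change of 0.21 (SE 0.67).

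For TFRC and the ferritin genes, the 2 libraries of a condition differed more than the conditions. TFRC was at 208 and 488 CPM with control siRNA and at 168 and 493 CPM with STAT6 siRNA (log2 fold change -0.10, SE 0.66). FTL was at 9769 and 4564 CPM and at 15175 and 5222 CPM (0.44, SE 0.67), and FTH1 at 2600.1 and 1417 CPM and at 4036 and 1596 CPM (0.42, SE 0.62). In both conditions library 1 held less TFRC and more FTL and FTH1 than library 2. Per kilobase, the FTL to TFRC ratio was 273 in library 1 and 54.2 in library 2 with control siRNA, and 523 and 61.5 with STAT6 siRNA.

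Base composition moved with library number in this table. Across 10931 genes, the difference of library 2 from library 1 in log2 CPM had a Spearman correlation with transcript GC content of -0.79 with control siRNA and -0.85 with STAT6 siRNA, against -0.10 in Hep3B and 0.33 in SOX4-/-. Genes are not independent replicates, and these values only describe the libraries. TMPRSS6 (63.1% GC), TFR2 (61.7%) and FTL (56.3%) were higher in library 1 in both siRNA conditions, and TFRC (41.5%) and SLC40A1 (42.4%) lower. HAMP (58.5%), HFE2 on 3 to 12 counts (51.5%) and FTH1 (50.1%) were also higher in library 1, while BMP6 (54.8%) was lower there, and HFE (44.9%) hardly differed. The part of base composition in the library differences was not tested gene by gene.

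**Figure D4:**
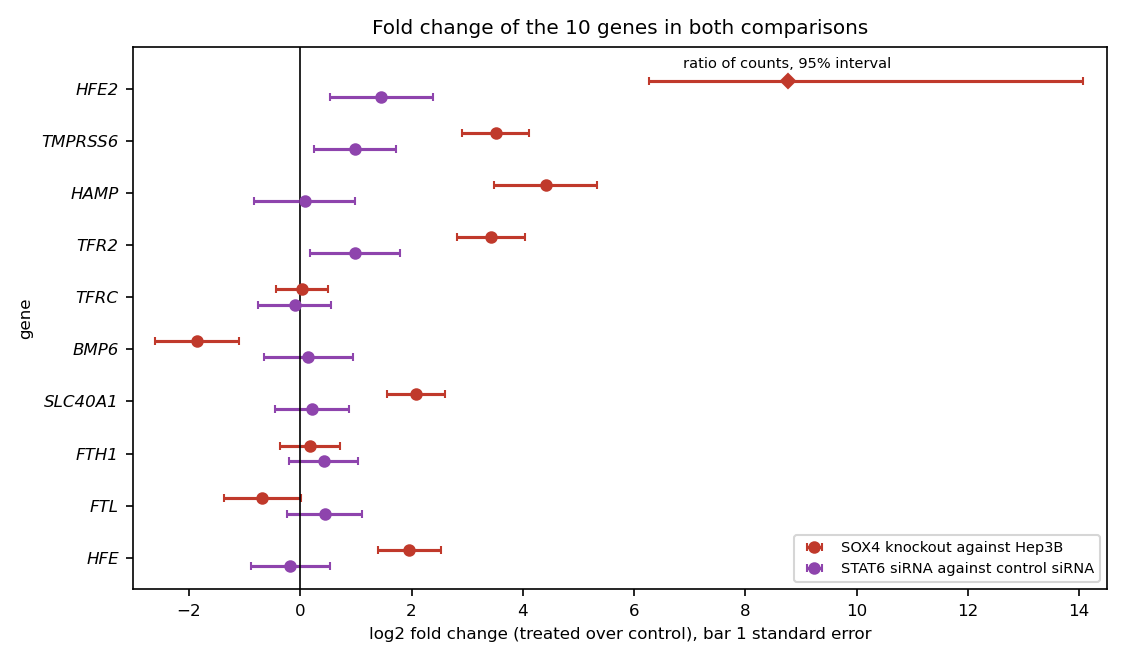
Log2 fold change of the 10 genes, SOX4-/- over Hep3B in red and STAT6 siRNA over control siRNA in purple, with bars of 1 standard error. HFE2 in SOX4-/- is drawn as a diamond at its ratio of counts of 433, with the exact 95% counting interval of 77.4 to 17124, on the same log2 axis. The purple points lie between -0.18 and 1.46, and the other red ones between -1.86 and 4.41.

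Across the 4 conditions, the order of HFE2 by mean was SOX4-/-, STAT6 siRNA, control siRNA and Hep3B, and no neighbours overlapped. TMPRSS6 had the same order, at 60.0 ± 14.6, 49.0 ± 36.5, 23.6 ± 11.9 and 5.48 ± 3.97 CPM (SD, n = 2), and only control siRNA and Hep3B did not overlap. HAMP and TFR2 also had this order, and in both SOX4-/- stood apart while the other 3 conditions overlapped with their neighbours. For HFE the order was SOX4-/-, control siRNA, STAT6 siRNA and Hep3B with no overlap, at 19.8 ± 4.63, 14.3 ± 0.205, 13.1 ± 0.132 and 5.30 ± 3.70 CPM (SD, n = 2). SLC40A1 was highest in SOX4-/- and the other conditions overlapped in turn, and BMP6 was lowest there with the same overlap among the rest. For FTH1 and FTL every pair of neighbours overlapped, with STAT6 siRNA the highest by mean in both. TFRC was at 577 ± 272 CPM in Hep3B, 569 ± 59.9 in SOX4-/-, 348 ± 198 with control siRNA and 330.4 ± 229 with STAT6 siRNA (SD, n = 2), and only SOX4-/- and control siRNA did not overlap. Hep3B and control siRNA come from different tables, and transfection, culture and sequencing cannot be told apart between them.

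The genes whose log2 CPM followed HFE2 most closely over the 8 libraries were CTSF (Pearson r = 0.988), SAYSD1 (0.985), BAIAP3 (0.985), HYAL1 (0.982) and LYNX1 (0.979), of 10987 genes averaging 100 counts or more per library. In each of these 5, as in HFE2, the SOX4-/- libraries were the highest of the 8. CTSF, which encodes the lysosomal protease cathepsin F, was at 0.725 and 0.346 CPM in Hep3B and at 30.4 and 22.7 CPM in SOX4-/-. For TMPRSS6 they were GSTM3 (0.994), HIP1R (0.992), GLTPD2 (0.991), EPS8L2 (0.988) and ABCA2 (0.988). GLTPD2 was at 8.85 and 4.21 CPM in Hep3B, 100.1 and 54.8 in SOX4-/-, 45.5 and 22.0 with control siRNA, and 91.8 and 37.1 with STAT6 siRNA. For HAMP they were TBC1D2B (0.981), UBE2E2 (0.966), LOC100419583 (0.965), CD83 (0.963) and LGALS1 (0.945). All 5 were highest in SOX4-/- library 2, like HAMP, and LGALS1, the galectin-1 gene, reached 146 CPM there against 39.5 CPM in library 1. Among the 10 genes themselves, r with HFE2 was 0.954 for TFR2, 0.856 for HAMP, 0.802 for TMPRSS6, 0.773 for SLC40A1, 0.664 for HFE, 0.130 for TFRC, 0.062 for FTH1, -0.295 for FTL and -0.884 for BMP6. The points share libraries, depth and base composition, and with 8 libraries in 4 pairs such a correlation is a description only.

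The BMP pathway around these genes was described with 32 further genes, of which 27 were tested in each table. This list and those that follow were chosen with earlier results of these data known. Their p-values in SOX4-/- are therefore a description and no independent support. In SOX4-/-, 2 of the 27 were higher and 0 lower at an adjusted p below 0.05, beside 4.50% of all genes tested that were higher and 1.39% that were lower. FST, which encodes follistatin, a trap for activins and some BMPs, rose from 0.569 and 1.48 CPM to 9.31 and 13.3 CPM. Its log2 fold change was 3.51 (SE 0.63, adjusted p = 0.0279, edgeR's quasi-likelihood test). ATOH8, a BMP-SMAD target that acts on HAMP, rose from 20.7 and 13.8 CPM to 43.9 and 71.0 CPM. Its log2 fold change was 1.79 (SE 0.42, adjusted p = 0.0494, edgeR's quasi-likelihood test). In Hep3B with control siRNA, ATOH8 was at 67.4 and 39.3 CPM, which overlaps its SOX4-/- values. FST was at 3.38 and 6.24 CPM there, below its SOX4-/- values. The other tested genes, among them the other BMP ligands, the receptors, the SMAD genes and the targets ID1, ID2 and ID3, did not pass. FST lost its call without either SOX4-/- library, and ATOH8 without either of them or without Hep3B library 2 (adjusted p from 0.0688 to 0.310, edgeR's quasi-likelihood test). The median log2 fold change of the 27 was 0.34, against 0.01 over all genes.

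The wider iron handling list held 31 genes, of which 29 were tested in SOX4-/-, and 2 were higher and 1 lower, again beside 4.50% and 1.39% of all genes tested. HPX, which encodes hemopexin, the plasma carrier of heme, rose from 2.48 and 3.56 CPM to 83.9 and 25.0 CPM. Its log2 fold change was 4.24 (SE 0.66, adjusted p = 0.0215, edgeR's quasi-likelihood test), and it was 3.10 without SOX4-/- library 1, where the call was lost. HP, which encodes haptoglobin, the carrier of free haemoglobin, had 3 and 1 counts in Hep3B and 81 and 23 in SOX4-/-, a ratio of scaled counts of 20.4 with an exact 95% counting interval of 7.73 to 76.2 (adjusted p = 0.0465, edgeR's quasi-likelihood test). HP shares near-identical sequence with HPR, so its counts are uncertain. HMOX1, which encodes heme oxygenase, fell from 35.8 and 172 CPM to 10.9 and 14.7 CPM. Its log2 fold change was -2.95 (SE 0.69, adjusted p = 0.0498, edgeR's quasi-likelihood test), and it was -1.45 without Hep3B library 2 and -3.73 without Hep3B library 1. Without either SOX4-/- library HMOX1 and HP lost their calls, and HP also without Hep3B library 2. Once GC content and length entered the fit as offsets, only FST (adjusted p = 0.0401, edgeR's quasi-likelihood test) and HPX (adjusted p = 0.0404) kept the call among these 5 genes of the BMP and iron lists. The fold changes of HP (4.30) and HMOX1 (-3.25) were no smaller in that fit, and that of ATOH8 was 1.29. Transferrin, the 2 iron regulatory proteins encoded by ACO1 and IREB2, and the ferritin receptor NCOA4 did not pass. The median of the 29 was 0.19, against 0.01 over all genes.

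Of 8 genes of the interleukin-6 arm, which raises HAMP in inflammation, 7 were tested and 0 passed in either table, with 1 at an unadjusted p below 0.05 in SOX4-/- by edgeR's quasi-likelihood test and 0 with STAT6 siRNA. Over all 14415 genes tested in SOX4-/-, 3753 had an unadjusted p below 0.05. The gene of the list was IL6R, the interleukin-6 receptor, at 17.0 and 42.2 CPM in Hep3B and at 77.2 and 56.1 CPM in SOX4-/- (log2 fold change 1.24, SE 0.48). STAT3 had 0.53 (SE 0.34) and JAK1 0.51 (SE 0.36). The median of the 7 was 0.42, against 0.01 over all genes.

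With STAT6 siRNA, 0 of the 27 BMP pathway genes and 0 of the 27 iron handling genes tested passed by edgeR's quasi-likelihood test, and 0 had an unadjusted p below 0.05. That fit did not take up the library number. Fits with the number as a block, in which some genes of the lists passed, are given at the end. Among genes averaging 100 counts or more, the largest differences were in HPX, at 22.4 and 10.2 CPM with control siRNA and 45.8 and 20.1 CPM with STAT6 siRNA (log2 fold change 0.95, SE 0.74), and in ST14 (0.53, SE 0.62), CEBPA (0.51, SE 0.64) and SLC25A37 (-0.49, SE 0.73). SLC11A2 had -0.44 (SE 0.65), ATOH8 -0.43 (SE 0.66), FST 0.40 (SE 0.80), IL6ST -0.34 (SE 0.86) and JAK1 0.28 (SE 0.64). The medians were -0.14 for the BMP list, -0.08 for the iron handling list and -0.06 for the interleukin-6 arm, against -0.03 over all genes.

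**Figure D5:**
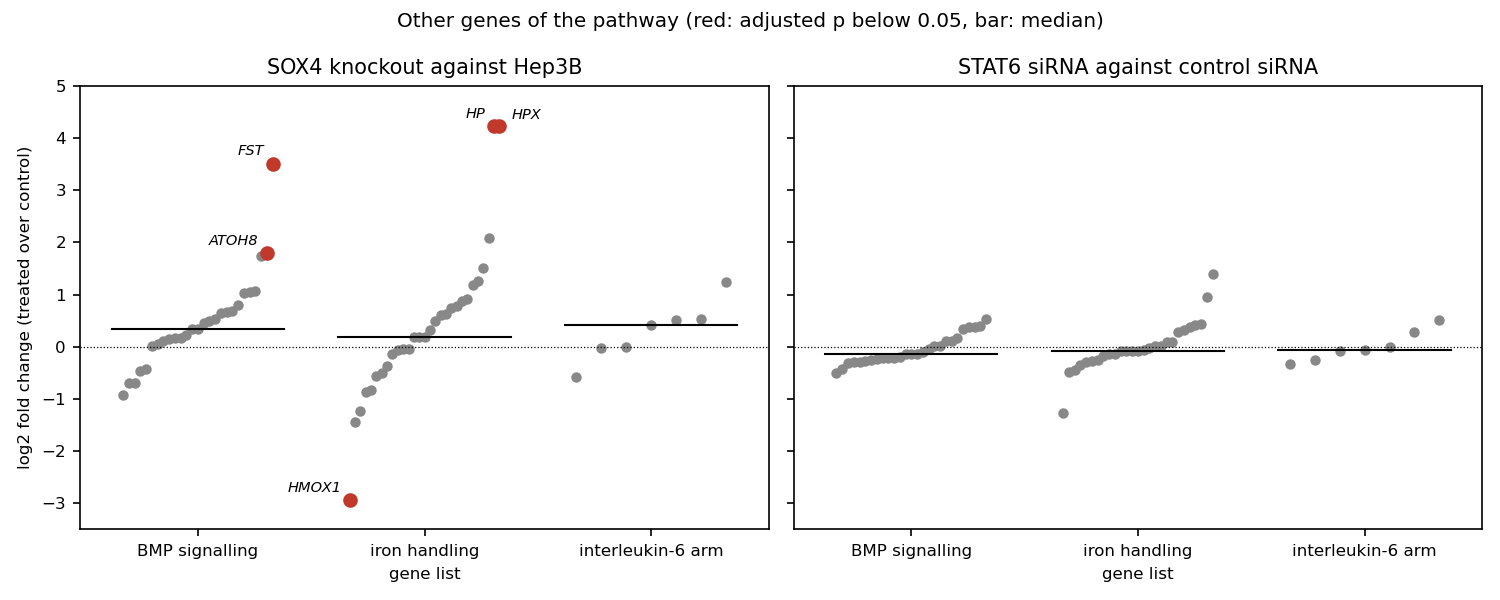
Log2 fold change of each tested gene of the 3 lists in both comparisons, sorted within a list, with a bar at the list's median and red points at an adjusted p below 0.05. FST, ATOH8, HPX and HP are red above 0 and HMOX1 is red below 0 in SOX4-/-, and no point is red with STAT6 siRNA. HP is drawn at its fitted value.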

How the data were processed

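RNA from Hep3B cells was analysed in 8 libraries, grouped by their labels. The authors deposited expected counts per RefSeq transcript, not normalized, in a table for each comparison. The submitters' processing notes name STAR, Partek and hg38, and the quantifier is not given in the sources used here. In both tables each listed transcript reached a sum of 10 counts over its 4 libraries. The design had assumed counts, so transcript estimates were added up by gene name and the sums rounded.

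Each table was fitted with edgeR 4.0.16 in R 4.3.3 (filterByExpr, TMM, glmQLFit, glmQLFTest), with Benjamini-Hochberg adjustment over all genes tested and a threshold of 0.05. The steps were tested on simulated data. Levels are TMM CPM over all 8 libraries, and log2 CPM used a prior count of 2. Lengths, GC content and hairpins came from GENCODE release 29 transcripts, and promoters from RefSeq.

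The 10 genes and the lists were chosen with earlier results of these data known. Named were all 10, list genes with an adjusted p below 0.05 or otherwise the 3 of largest change averaging 100 counts, and the 5 genes most alike HFE2, TMPRSS6 and HAMP. Alternatives were size factors by median of ratios or by upper quartile, the Wald test of DESeq2 1.42.0, all genes unfiltered, a minimum of 10 counts in each library, robust fitting, the library number as a block, offsets for GC content and length (mgcv 1.9.3), both together, all 8 libraries in one fit, and leaving out each library.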

Additional observations from a re-analysis of the deposited data

How the results depend on the processing

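The 10 genes' mean levels in the 4 conditions moved by no more than 1 SD of the condition's libraries in 74 of 80 cases when the scaling was changed. In the SOX4-/- comparison 849 genes passed. DESeq2 called 2160, a minimum of 10 counts 518, GC and length offsets 481, and all 8 libraries in one fit 438. Leaving out single libraries gave 21 to 2298, with 2298 without Hep3B library 1, 1322 without Hep3B library 2, 73 without SOX4-/- library 1 and 21 without library 2. A group then has 1 library, assumed to vary like the other. Of the BMP list 1 gene passed with all genes unfiltered, 1 with the minimum of 10 counts, 1 with the offsets, 1 in the joint fit, and 0 to 4 with a library left out. Of the iron handling list 1 passed unfiltered, 1 with the minimum, 1 with the offsets, and 0 to 6 with a library left out. Of the interleukin-6 arm 0 to 1 passed with a library left out, the 1 without Hep3B library 2. The cause was not tested.

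The library number is shared only as a number, since no label pairs libraries across conditions. Deviations from the group means of libraries with the same number correlated across genes at -0.08 in the SOX4-/- table and at 0.87 in the siRNA table. With the number as a block, 982 genes passed in SOX4-/- and 62 with STAT6 siRNA, where 0 passed without it. With the block and the offsets together, 59 passed in SOX4-/-, with 0 of the BMP list and 0 of the iron list, and 367 with STAT6 siRNA, with 2 of the BMP list, 1 of the iron list and 1 of the interleukin-6 arm. ATOH8 of the BMP list was lower in that fit with STAT6 siRNA (adjusted p = 6.7e-06, edgeR's quasi-likelihood test). JAK1 of the interleukin-6 arm was higher (adjusted p = 0.0263, same test). HPX of the iron list, also higher, reached an adjusted p of 2.39e-05 by that test in the fits with the block. With the block alone 1 gene of the iron list passed with STAT6 siRNA. TMPRSS6 was the 1 gene of the 10 that passed with STAT6 siRNA, with a log2 fold change of 0.88 under the block (adjusted p = 0.0108, edgeR's quasi-likelihood test) and 0.61 under the block with offsets (adjusted p = 0.00192). In the fits without the block its adjusted p was 0.899 to 1.000.

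With STAT6 siRNA several log2 fold changes changed sign. With the offsets TFRC was at 0.01 and IL6ST at 0.00, and at 0.01 for IL6ST with the block added. With single libraries left out the values were -0.02 to 1.69 for TMPRSS6, -0.67 to 1.71 for HAMP, -1.15 to 0.66 for TFRC, -0.22 to 0.73 for BMP6, -0.31 to 0.59 for SLC40A1, -0.33 to 0.99 for FTH1 and -0.46 to 1.16 for FTL. In the lists they were -0.17 to 1.20 for ST14, -1.04 to 0.08 for ATOH8, -0.50 to 0.94 for FST, -0.45 to 1.15 for CEBPA, -1.57 to 1.40 for IL6ST and -0.46 to 0.97 for JAK1. Leaving out a library makes the library numbers unequal between the conditions, and same-numbered libraries deviated together here, so these ranges also hold that difference. HFE2, TFR2 and HFE kept their sign in every fit. HFE2, HAMP and BMP6 had at most 30 counts per library in the siRNA table.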
